A study of Homo sapiens with 16 samples.

Results

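Cells in which a hairpin against AKAP2 had been switched on were compared with cells in which a scrambled hairpin had been switched on, across all genes. The comparison was defined by the library labels and used 8 of the 16 libraries of the series, 4 with the shAKAP2 hairpin and doxycycline and 4 with the shScramble hairpin and doxycycline. The cells were MDA-MB-231, a human triple-negative breast cancer line of mesenchymal character that is widely used as a model of invasion and metastasis. Polyadenylated RNA was sequenced and reads were counted per gene.

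Both groups received doxycycline, the drug that turns on the inducible promoter of the hairpin, so exposure to the drug is common to them. They differ in the hairpin sequence and also in the cell line, because each hairpin was carried by its own line. Hairpin and line therefore cannot be told apart from these 8 libraries alone. The same lines without doxycycline, 4 libraries each, gave the line difference without induction and are used beside the induced values. Where the text below says before induction, it means these libraries, whose titles say no doxycycline and give no order in time. There was 1 hairpin against AKAP2, and neither its sequence, the doxycycline dose nor the length of treatment is given in the sources used here. The labels call the libraries biological replicates without saying whether they came from separate cultures, and they do not say whether a line was a clone, so the p-values reflect how much these particular libraries varied.

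AKAP2 is an A-kinase anchoring protein, one of a family of scaffolds that bind the regulatory subunits of protein kinase A (PKA) and place the kinase near its substrates. PKA is a tetramer of regulatory and catalytic subunits, the catalytic subunits being released when cAMP binds, and phosphodiesterases end the signal by breaking cAMP down. At focal adhesions, integrins join the extracellular matrix to actin through adaptors such as vinculin and talin, and focal adhesion kinase signals from there. A short hairpin RNA is cut by the cell into a small RNA that guides silencing of a matching transcript, and its seed can also pair with short matches in the 3′ UTRs of other transcripts.

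Total counts ranged from 24482997 to 27366722 in the induced shAKAP2 libraries and from 25411278 to 36445058 in the induced shScramble libraries. Of 57500 genes, 15566 had enough counts to be tested. Mitochondrially encoded genes took 1.02% to 2.04% of the counts in induced shAKAP2 libraries, against 2.2% to 3.02% in induced shScramble libraries. The first principal component held 52.3% of the variance and separated the groups. Replicate 1 of induced shScramble cells stood apart from its group, with a root mean square log2 distance of 0.615 to the group mean, against 0.391 to 0.469 for the other 7 libraries of the comparison, and results whose fold difference it moves by more than 1.5 times are given with and without it. Of 9 markers of the line 4 were lower (CAV1, S100A4, PLAU and LGALS1) and 2 higher, and they summed to 7320 to 7440 CPM (counts scaled to library size, with edgeR's TMM factors) in induced shAKAP2 libraries, against 8720 to 8990 CPM in induced shScramble libraries. Vimentin, the intermediate filament of mesenchymal cells, stood at 1610, 1510, 1450 and 1510 CPM in induced shAKAP2 cells, against 1300, 1430, 1480 and 1530 CPM in induced shScramble cells, with no call (adjusted p = 0.337), and the estrogen receptor gene ESR1 had 0 counts in all 8 libraries.

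AKAP2 itself was nearly absent from the induced shAKAP2 libraries. AKAP2 (ENSG00000241978; GRCh38 chromosome 9, 110048598 to 110172512, plus strand) had 0.124, 0, 0.0376 and 0 CPM in induced shAKAP2 cells, against 0.858, 1.6, 2.19 and 2.38 CPM in induced shScramble cells. The groups did not overlap. Summed over the libraries these were 4 and 212 counts, which leaves 2.1% of the shScramble level (exact 95% interval for counting error 0.566% to 5.45%). The log2 difference was -5.38 (SE 0.572, adjusted p = 3.09e-07 by edgeR's quasi-likelihood test with Benjamini-Hochberg adjustment over all genes tested, which gave every adjusted p below). It was -6.73 without shAKAP2 replicate 1, which held most of the remaining counts. Before induction the lines did not differ by the test in AKAP2, with means of 1.42 CPM in shAKAP2 cells and 1.17 CPM in shScramble cells (log2 difference 0.27, adjusted p = 0.667). The induced difference was beyond the uninduced one by -5.65 on the log2 scale (SE 0.703, adjusted p = 8.48e-06).

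The readthrough gene PALM2-AKAP2, which shares exons with AKAP2, had 5 counts over the induced shAKAP2 libraries and 103 over the induced shScramble libraries. Its log2 difference was -4.13 (SE 0.802, adjusted p = 0.000352), -4.98 without shAKAP2 replicate 1 and -3.33 without shScramble replicate 3. How reads on the shared exons were assigned is not known here, so the level of the whole locus cannot be read from either gene. PALM2, the upstream neighbour in the readthrough, had 0.535, 0.22, 0.789 and 1.21 CPM in induced shAKAP2 cells, against 0.819, 1.05, 2.19 and 1.26 CPM in induced shScramble cells. These ranges overlapped, and the log2 difference of -0.94 (SE 0.416) did not pass the test (adjusted p = 0.0784); it did without shAKAP2 replicate 4 (-1.36, adjusted p = 0.021) and without shScramble replicate 1 (-1.11, adjusted p = 0.0441).

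A 7-letter word in 3′ UTRs was far more common among the genes lower in induced shAKAP2 cells than among the rest. The word, GAACACA, was taken from an earlier account of these same libraries, so its frequencies are a description and not an independent test. It was searched on the transcribed strand of the longest annotated 3′ UTR of each gene (GENCODE release 29, GRCh38), and 1842 of 12862 genes with a 3′ UTR hold it, 14.3%. Windows of 29 bases around it are shown for AKAP2 and for genes described further on, with the word in capitals.
AKAP2 (chr9:110169247-110169275, plus strand; shared with PALM2-AKAP2): gcagtttatgaGAACACAttttcacagtt
VCL (chr10:74118935-74118963, plus strand): agccatcccatGAACACActgtgtcctgg
IL6ST, first site (chr5:55937143-55937171, minus strand): ttttatttcttGAACACAggctttgtctg
IL6ST, second site (chr5:55937104-55937132, minus strand): ttttatctcttGAACACAagctttgaatg
EFNB2, first site (chr13:106492835-106492863, minus strand): tcggccttggtGAACACAcacgctccctg
EFNB2, second site (chr13:106491498-106491526, minus strand): ataggtatataGAACACAagggatataaa
TGFA (chr2:70447749-70447777, minus strand): cccaaaaccaaGAACACAttgcagaagta
FOSL2 (chr2:28416608-28416636, plus strand): acattgtaagaGAACACAgtggaagatcc
PDE4D (chr5:58971680-58971708, minus strand): tgcaagttactGAACACAataatgctgtt
MYCBP (chr1:38864300-38864328, minus strand): gttcaggatatGAACACAggtacagtcat
MMP1 (chr11:102790012-102790040, minus strand): aagcagctcaaGAACACAtgtgcagtcac
MDM2 (chr12:68847072-68847100, plus strand): tgagtagctggGAACACAggcctgttgcc
RFLNB (chr17:441513-441541, minus strand): atattccccttGAACACAtccaaattatt

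The genes listed down to MMP1 were lower in induced shAKAP2 cells and the last 2, MDM2 and RFLNB, were higher, so genes with the word were found in both directions. Among genes called lower with doxycycline 25.5% held the word (767 of 3013), against 7.71% of those called higher (210 of 2722) and 12.1% of those not called (865 of 7127). The longest UTR of some genes comes from a transcript of another class, and with protein-coding transcripts alone, an alternative chosen after seeing the data, these shares were 23.9%, 6.58% and 10.5%, against 12.8% of all genes. Of all 16384 words of that length, this one had the largest excess among the lower genes over the others, and the word that followed, AACACAA, overlaps it in 6 letters. Without doxycycline the same word ranked 13748, and it stood in 18.1% of genes called higher, 11.5% of those called lower and 14.2% of those not called. The median log2 difference with doxycycline was -0.32 for 267 genes with 2 or more copies, -0.21 for 1575 genes with 1 copy and 0.02 for 11020 genes with none. The corresponding medians without doxycycline were 0.07, 0.01 and -0.01. Median 3′ UTR length also differed between the classes, at 1819 bases for genes lower with doxycycline, 1669 for genes higher and 1562 for genes not called. Without doxycycline it differed more, at 1328 bases for genes lower, 2256 for genes higher and 1611 for genes not called. The shares and ranks of the word were not adjusted for length, and the part of length in them was not tested.

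**Figure D1:**
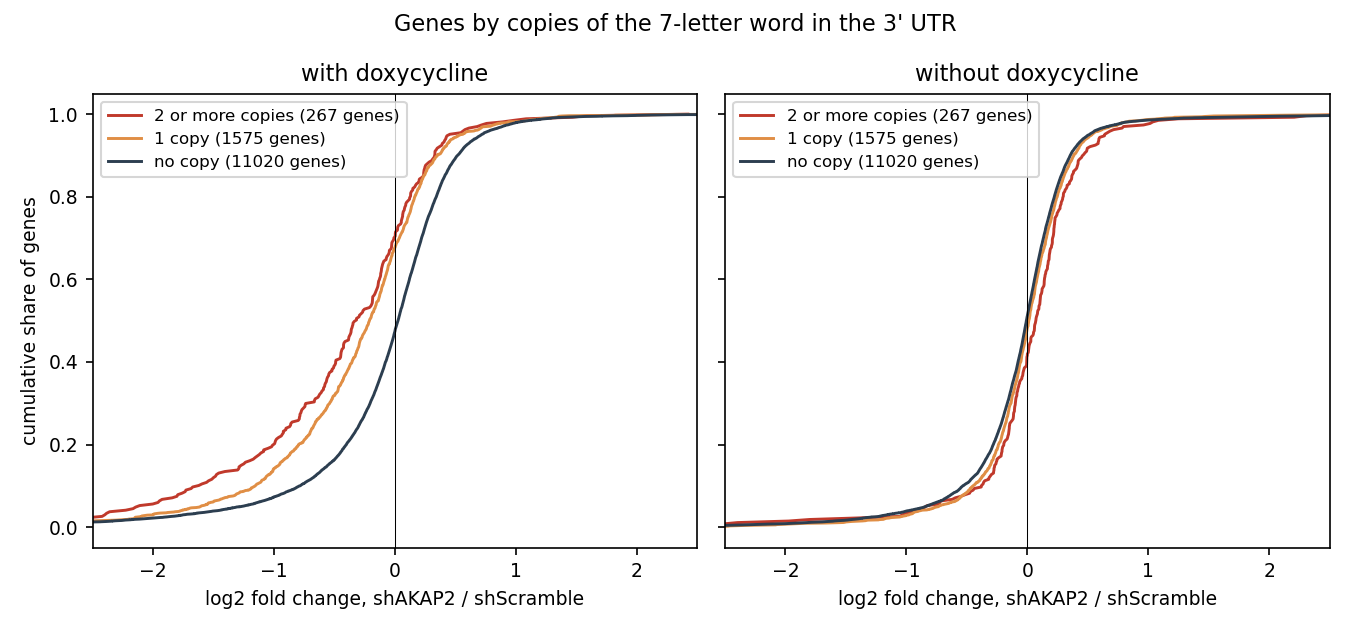
Cumulative share of genes (y axis) by log2 difference between shAKAP2 and shScramble cells (x axis), with doxycycline on the left and without it on the right, for genes with 2 or more copies, 1 copy or no copy of the word in the 3′ UTR. With doxycycline the curves of genes with copies lie to the left of the curve of genes without, with medians of -0.32 and -0.21 against 0.02, and without doxycycline the medians are 0.07, 0.01 and -0.01.

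Across the genome, 6251 of 15566 genes were called at an adjusted p under 0.05, 40.2% of those tested. The higher set held 2911 genes (18.7%) and the lower set 3340 (21.5%), with a median log2 difference over all genes of -0.01. Large differences lay mostly on the lower side, where 1148 genes (7.38%) were called with at least a 2-fold difference, against 296 (1.9%) on the higher side. The libraries of the groups did not overlap for 5888 genes, 37.8%. Because so many genes passed, the shares of 18.7% and 21.5% are the background against which each gene list below is read. Every gene named below as higher or lower had an adjusted p of at most 0.0174, also where its log2 difference is given with the SE alone.

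Part of the difference between the lines was already called without doxycycline. Without doxycycline 1346 genes (8.65%) were higher in shAKAP2 cells and 1449 (9.31%) lower, in libraries that the induced comparison does not use; leaving out shAKAP2 replicate 1 without doxycycline gave 744 higher and 930 lower, leaving out shAKAP2 replicate 2 gave 805 and 959, and leaving out both shScramble replicate 1 libraries gave 2132 and 2029. Both comparisons called 655 genes higher, which is 22.5% of those higher with doxycycline and 48.7% of those higher without it. In the lower direction they shared 887 genes, 26.6% of those lower with doxycycline and 61.2% of those lower without it. Across 15566 genes the log2 differences with and without doxycycline had a Pearson r of 0.49 and a Spearman rho of 0.42, given as a description over genes that share their libraries. The difference between the induced and the uninduced line difference, tested in the same fit and called the interaction below, was called for 2802 genes (18%), with 1172 higher (7.53%) and 1630 lower (10.5%). With both shScramble replicate 1 libraries left out these counts were 2261 and 2565.

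**Figure D2:**
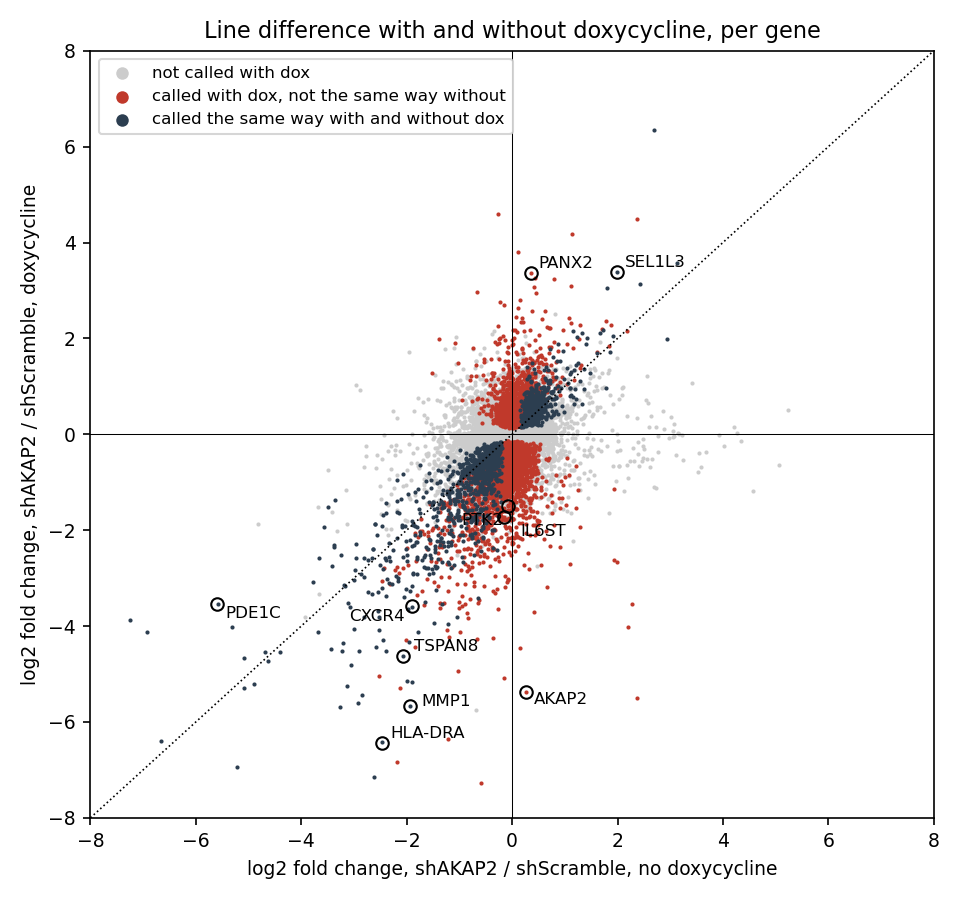
Log2 difference between shAKAP2 and shScramble cells with doxycycline (y axis) against that without doxycycline (x axis), 1 point per gene tested, with the dotted line marking equal differences. PTK2, IL6ST, AKAP2 and PANX2 lie near 0 on the x axis and away from 0 on the y axis, HLA-DRA and MMP1 are lower on both axes, and PDE1C lies above the dotted line, being lower without doxycycline (-5.59) than with it (-3.54).

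The largest increases among genes of at least 1 mean CPM were in genes of low level. GLB1L2, a beta-galactosidase-like gene, had 8.23, 7.48, 9.28 and 7.14 CPM in induced shAKAP2 cells, against 0.974, 0.612, 0.626 and 0.492 CPM in induced shScramble cells. That gap was there without doxycycline too, and the log2 difference was 3.58 with it (SE 0.249, adjusted p = 7.07e-10) and 3.13 without it, with no interaction call (adjusted p = 0.42). PANX2, a pannexin channel gene, had 9.59, 8.83, 8.35 and 5.93 CPM in induced shAKAP2 cells, against 0.351, 0.679, 0.587 and 1.45 CPM in induced shScramble cells. PANX2 differed with doxycycline (3.36, SE 0.362, adjusted p = 4.21e-07) and was not called without it (0.35), and its interaction of 3.01 was called. SEL1L3 had 11.8, 12.2, 7.29 and 6.92 CPM in induced shAKAP2 cells, against 0.896, 0.815, 0.626 and 1.26 CPM in induced shScramble cells, a log2 difference of 3.38 (SE 0.33) that exceeded the 1.99 without doxycycline by the interaction test (adjusted p = 0.039).

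The other increases that the naming rule selected ran from 2.11 to 3.05 on the log2 scale, with adjusted p of at most 0.000673. MYO1D, an unconventional myosin, was higher by 2.16, and it was not called without doxycycline (0.05) and its interaction was called. The monocarboxylate transporter family gene SLC16A14 (2.42), the amine oxidase AOC2 (2.94) and the antisense gene PRKCQ-AS1 (2.44) likewise passed the interaction test. By contrast KIAA0319 (3.05), RFLNB, the refilin gene of actin bundling (2.18), SYBU (2.11) and CCDC183-AS1 (2.15) were called in both states with no interaction call. GRAMD2A (2.32) was called with doxycycline and neither without it nor for the interaction.

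Among the largest decreases were HLA class II genes, a collagenase and a secreted protease inhibitor. HLA-DRA, the alpha chain of HLA-DR, which presents peptides to helper T cells, had 0.782, 0.77, 0.564 and 1.72 CPM in induced shAKAP2 cells, against 185, 56.9, 41.3 and 50.9 CPM in induced shScramble cells. All 4 shScramble libraries lay far above, replicate 1 most of all, and the log2 difference was -6.43 (SE 0.785, adjusted p = 2.9e-05) with it and -5.68 without it. MMP1, interstitial collagenase, had 1.15, 0.843, 1.32 and 0.549 CPM in induced shAKAP2 cells, against 39.6, 45.6, 67.6 and 42.6 CPM in induced shScramble cells. Its log2 difference was -5.66 (SE 0.385, adjusted p = 3.35e-08) with doxycycline and -1.93 without, and the interaction of -3.73 was called. CST1, a secreted cysteine protease inhibitor, had 6.26, 5.32, 5.23 and 4.61 CPM in induced shAKAP2 cells, against 303, 63, 47.1 and 63.8 CPM in induced shScramble cells. CST1 differed by -4.48 (SE 0.786), or -3.44 without shScramble replicate 1, and by -3.43 before induction, with no interaction call.

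The remaining decreases that the rule selected had log2 differences of -4.35 to -5.69 and adjusted p of at most 0.00513, and for most of them shScramble replicate 1 was the highest library. Without that library the steroid dehydrogenase gene HSD3B1 differed by -4.25, against -5.69 with it, HLA-DPB1 by -4.68, against -5.61, HLA-DRB1 by -4.68, against -5.43 and the galectin gene LGALS12 by -4.4, against -5.26. In the same way AGR2, a disulfide isomerase of secretory epithelia, differed by -3.56, against -5.04, the receptor gene GPRC5B by -3.91, against -4.53, HLA-DRB5 by -3.85, against -4.53 and the ribonuclease gene RNASE1 by -3.4, against -4.35. TSPAN8, a tetraspanin, differed by -4.63 and by -5.53 without shAKAP2 replicate 4. Leaving out that library also moved HSD3B1 to -6.59 and HLA-DRB5 to -5.35, and leaving out shAKAP2 replicate 3 moved HLA-DPB1 to -6.44. Of these genes TSPAN8 passed the interaction test (-2.55), and HSD3B1, HLA-DPB1, HLA-DRB1, LGALS12, AGR2, GPRC5B, HLA-DRB5 and RNASE1 did not. HLA-DPB1, LGALS12 and AGR2 lost their call in limma-voom, at adjusted p = 0.0648, 0.0743 and 0.0953.

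**Figure D3:**
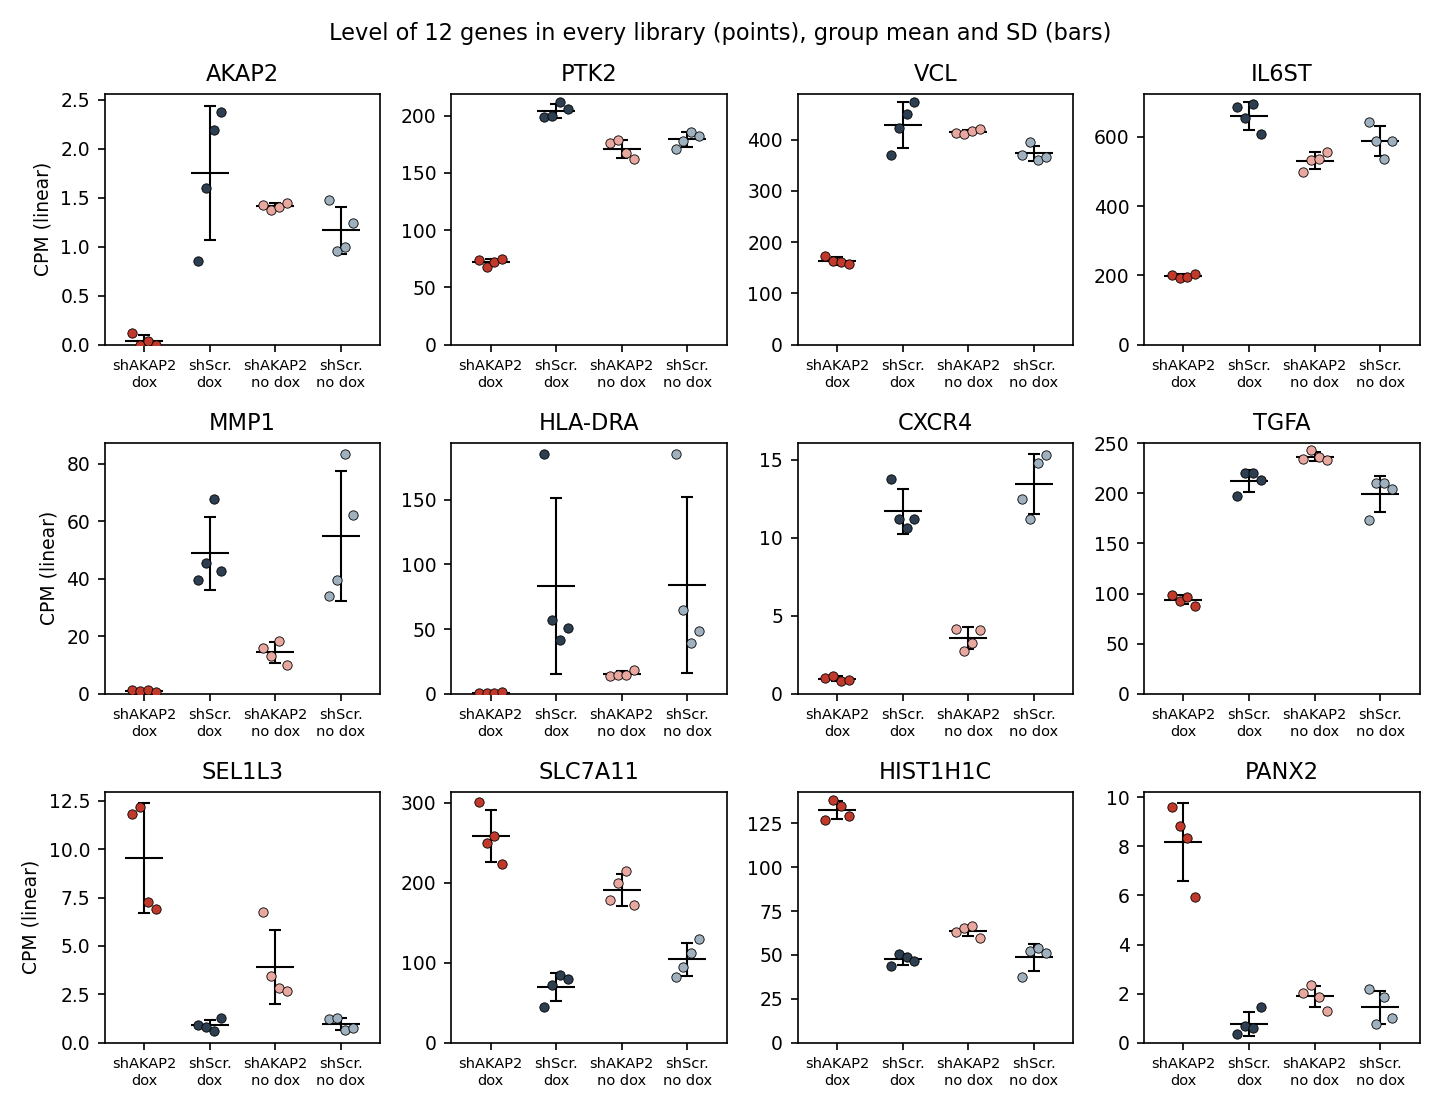
Level of 12 genes in CPM on linear axes from 0, in every library (points) with the group mean and SD (bars, n = 4), for shAKAP2 and shScramble (shScr.) cells with doxycycline (dox) and without it. AKAP2, PTK2, VCL, IL6ST and TGFA are low in induced shAKAP2 cells alone, MMP1, HLA-DRA and CXCR4 are low in shAKAP2 cells in both states and lower still with doxycycline, and SEL1L3, SLC7A11, HIST1H1C and PANX2 are highest in induced shAKAP2 cells.

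MHC class II genes were lower as a group. Of 12 tested members 11 were lower and none higher, with a median log2 difference of -3.9, and their summed level was 48.5 to 80.5 CPM in induced shAKAP2 libraries, against 303 to 927 CPM in induced shScramble libraries. CIITA, the transcriptional master regulator of the class, had 1.44, 1.14, 1.62 and 2.2 CPM in induced shAKAP2 cells, against 14, 7.85, 8.26 and 10.7 CPM in induced shScramble cells. It differed by -2.67 (SE 0.292, adjusted p = 8.26e-07) with doxycycline and was not called without it (-0.56), and the interaction of -2.11 was called. HLA-DMB, which helps load peptide, differed by -4.12 (SE 0.547), and CD74, the invariant chain, chosen after its values were seen, by -2.76 (SE 0.435). Before induction 10 of the 12 were already lower (median -2.17), and 3 had a lower interaction. Without both shScramble replicate 1 libraries the count of 11 stood and the median was -3.24.

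MHC class I genes and their loading machinery were lower too, in 13 of 20 tested members, with 1 higher and a median of -0.76. Without doxycycline 5 of the list were lower and 1 higher (median -0.43), and the interaction was lower for 3 and higher for none. HLA-B had 328, 394, 400 and 407 CPM in induced shAKAP2 cells, against 1410, 830, 663 and 707 CPM in induced shScramble cells, with no overlap. The classical chains HLA-B and HLA-C, chosen after their values were seen, differed by -1.24 and -0.93, and the light chain B2M by -0.75. Without shScramble replicate 1 these were -0.94 for HLA-B, -0.67 for HLA-C and -0.46 for B2M, each still called. PSMB10, an immunoproteasome subunit, differed by -1.48 (SE 0.128) and the peptide-trimming protease ERAP2 by -1.15 (SE 0.161), both with a lower interaction. Reads of the HLA genes can be shared between these near-identical family members, so the value of any single HLA gene is uncertain.

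Interferon response genes were lower in 27 of 45 tested members and higher in 4, with a median of -0.37. Before induction 5 were lower and 8 higher, and the interaction was lower for 18 and higher for none. IRF1, a transcription factor of the response, had 22.4, 22.8, 19.4 and 19.2 CPM in induced shAKAP2 cells, against 62.3, 60.3, 60.8 and 64.1 CPM in induced shScramble cells (log2 difference -1.56, SE 0.105). DDX60, a helicase that takes part in antiviral sensing, differed by -1.27 (SE 0.0777) with doxycycline and by 0.22 without it. IFIT3, an effector that binds viral RNA complexes, differed by -0.95 (SE 0.0738), and BST2 (tetherin), chosen after its values were seen, by -2.79 (SE 0.264). The interactions of IRF1 (-1.01), IFIT3 (-0.84) and BST2 (-1.63) were called. They were smaller in size than the induced differences, so these genes were below 0 without doxycycline too.

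NF-kB response genes and cytokines showed the same direction, with 23 of 39 tested members lower, 3 higher and a median of -1.21. Before induction 13 of the list were lower and 4 higher, and the interaction was lower for 6 and higher for 2. The gene with the smallest p of the list was IL6ST, the signal-transducing receptor subunit (gp130) shared by cytokines of the IL6 family. IL6ST had 202, 192, 196 and 204 CPM in induced shAKAP2 cells, against 686, 654, 695 and 608 CPM in induced shScramble cells. The libraries within a group lay close together and the log2 difference was -1.73 (SE 0.0651, adjusted p = 8.99e-14), against -0.15 without doxycycline, which was not called. IL6ST holds both of the word sites shown above. IL24 differed by -1.76 (SE 0.164).

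Several ligands and adhesion molecules of the NF-kB list, chosen after their values were seen, were highest in shScramble replicate 1. IL6 had 3.01, 1.76, 1.69 and 2.12 CPM in induced shAKAP2 cells, against 20, 10.6, 6.85 and 5 CPM in induced shScramble cells (log2 difference -2.3, SE 0.5). ICAM1, an adhesion receptor for leukocytes, differed by -2.3 (SE 0.603, adjusted p = 0.00855). The chemokine CXCL1 differed by -2.97 and by -2.37 without shScramble replicate 1, and TNFSF10 (TRAIL) by -3.00 and by -2.15 without it. None of IL6, ICAM1, CXCL1 and TNFSF10 had an interaction call.

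**Figure D4:**
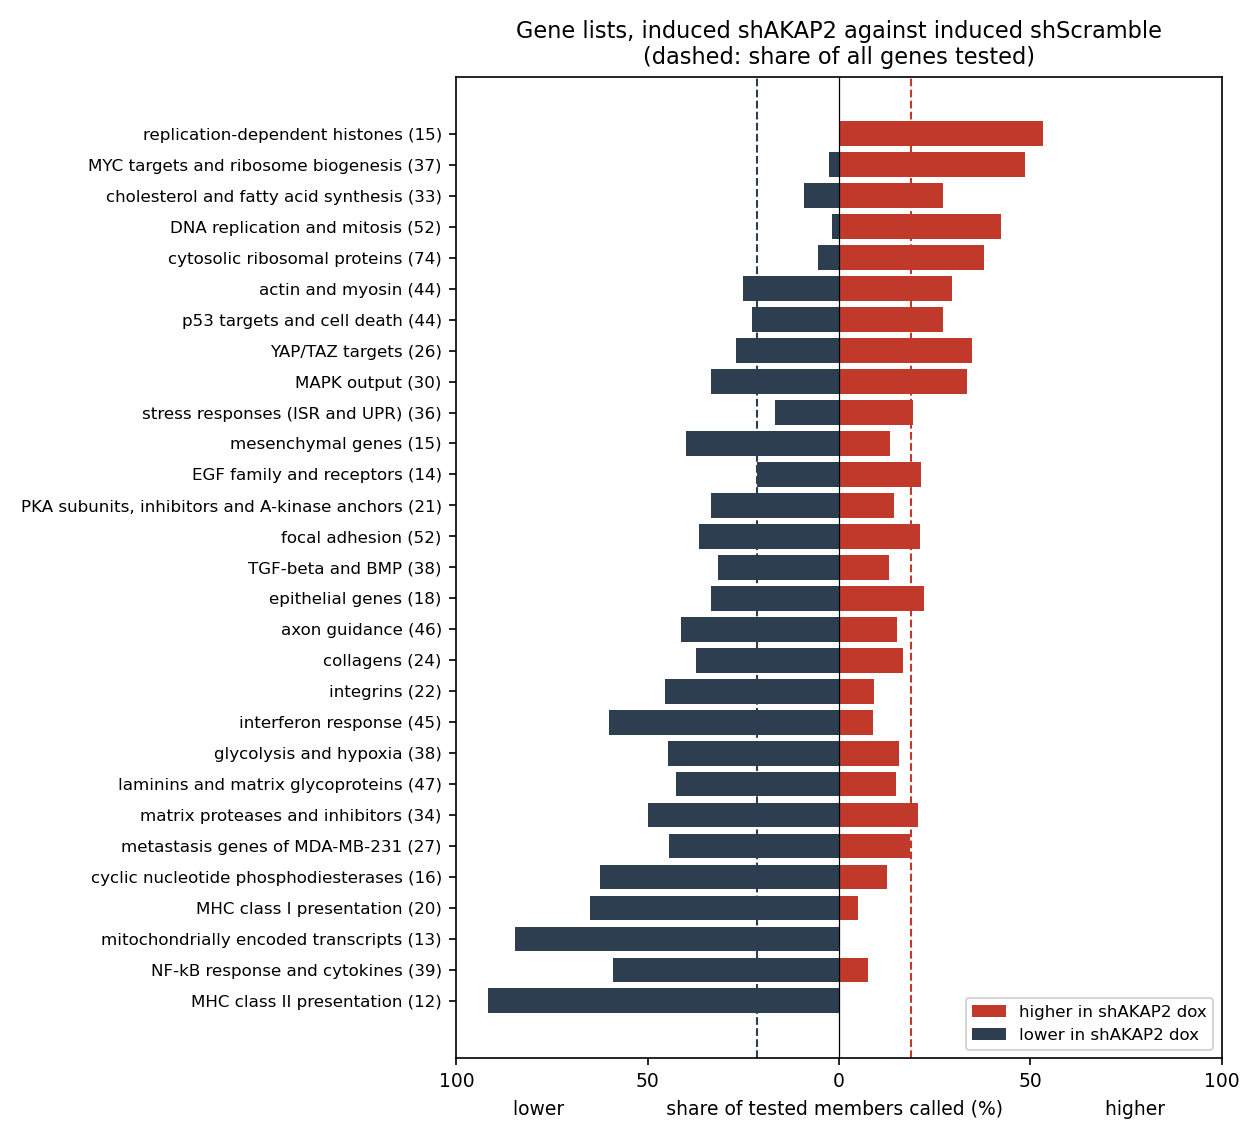
Share of tested members of 29 gene lists called higher (right, red) or lower (left, dark) in induced shAKAP2 cells, ordered by median log2 difference, with the number tested in brackets and dashed lines at the share of all genes tested, 18.7% higher and 21.5% lower. MHC class II, mitochondrially encoded and MHC class I genes have the longest bars to the left, and histone, MYC target and replication genes are mostly to the right.

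At focal adhesions, the best-supported differences were in focal adhesion kinase and vinculin. PTK2, which encodes focal adhesion kinase, had 74.2, 68.1, 71.8 and 74.6 CPM in induced shAKAP2 cells, against 199, 200, 212 and 206 CPM in induced shScramble cells. The log2 difference was -1.50 (SE 0.0587, adjusted p = 1.31e-13), against -0.07 without doxycycline, and the interaction of -1.43 was called. VCL, vinculin, which links talin to actin, had 174, 163, 161 and 157 CPM in induced shAKAP2 cells, against 370, 422, 449 and 474 CPM in induced shScramble cells. VCL differed by -1.39 (SE 0.068) with doxycycline and by 0.15 without it. ARHGEF6, a Rac and Cdc42 exchange factor that binds parvin, differed by -2.29 (SE 0.195), and CAV1, caveolin, by -0.76 (SE 0.0685). PTK2 and VCL each hold 1 copy of the word, and ARHGEF6 and CAV1 none.

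The list as a whole was mixed. Of 52 tested focal adhesion genes 19 were lower and 11 higher, with a median of -0.13, and 7 of the 19 lower genes but none of the 11 higher ones held the word. None of the 9 lower collagens and 2 of the 4 higher ones held it, and none of the 13 lower MHC class I genes did. Among all tested members, 3 of 24 collagens and 1 of 20 MHC class I genes held it, against 10 of 52 focal adhesion genes. Over all genes with a 3′ UTR, 25.5% of those lower and 7.71% of those higher held it. Without both shScramble replicate 1 libraries 24 focal adhesion genes were lower and 11 higher. Before induction 5 were lower and 6 higher, and the interaction was lower for 13 and higher for 2. PXN, paxillin, and TLN1, talin, chosen after their values were seen, were not called. PXN had 307, 282, 280 and 266 CPM in induced shAKAP2 cells, against 231, 309, 339 and 361 CPM in induced shScramble cells, and these ranges overlapped (log2 difference -0.13, adjusted p = 0.35; -0.25 and adjusted p = 0.0112 without shScramble replicate 1). TLN1 averaged 384 CPM in induced shAKAP2 cells and 402 CPM in induced shScramble cells (log2 difference -0.07, adjusted p = 0.714), and its sign turned when shAKAP2 replicate 3 (0.02) or shScramble replicate 4 (0.05) was left out.

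Integrins, the matrix receptors, were lower in 10 of 22 tested members and higher in 2, with a median of -0.37. Before induction 1 was lower and 7 higher, and the interaction was lower for 5 and higher for none. ITGB4, the laminin-binding subunit of hemidesmosomes, had 65.9, 68, 57.4 and 69.1 CPM in induced shAKAP2 cells, against 114, 124, 122 and 153 CPM in induced shScramble cells (log2 difference -0.98, SE 0.117). ITGA5, the fibronectin receptor subunit, differed by -0.52 (SE 0.0871) and the leukocyte subunit ITGB2 by -1.23 (SE 0.181). The summed level of all tested integrins hardly followed these calls, at 4510 to 4740 CPM in induced shAKAP2 libraries, against 4370 to 4540 CPM in induced shScramble libraries.

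Among PKA subunits, inhibitors and A-kinase anchors 7 of 21 tested genes were lower and 3 higher, with a median of -0.11. PRKACB, a catalytic subunit, had 32.7, 30.9, 39.3 and 42.3 CPM in induced shAKAP2 cells, against 59.4, 66.8, 67.2 and 65.9 CPM in induced shScramble cells (log2 difference -0.84, SE 0.0908, adjusted p = 4.08e-07). PRKAR1A, the main type I regulatory subunit, had 270, 254, 258 and 294 CPM in induced shAKAP2 cells, against 344, 363, 359 and 382 CPM in induced shScramble cells. It differed by -0.43 (SE 0.0653), although it was higher in shAKAP2 cells by 0.23 before induction, and the interaction of -0.66 was called. The anchor AKAP9, which sits at the Golgi and centrosome, differed by -0.87 (SE 0.13), with an interaction of -1.23. The anchors AKAP6 (-1.45) and AKAP12 (0.63), chosen after their values were seen, were each called in the same direction without doxycycline and had no interaction call. Without shScramble replicate 1 AKAP6 differed by -0.95. AKAP12 lost its call without shAKAP2 replicate 1 (0.56, adjusted p = 0.0532).

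The enzymes that break down cyclic nucleotides were lower in 10 of 16 tested genes and higher in 2, with a median of -0.73. Before induction 2 were lower and none higher. PDE4D, a cAMP-specific enzyme, had 21.7, 20.3, 21.2 and 22.9 CPM in induced shAKAP2 cells, against 50.4, 48, 44.5 and 40.6 CPM in induced shScramble cells. Its log2 difference was -1.09 (SE 0.085, adjusted p = 3.9e-09) with doxycycline and 0.08 without it. PDE8A, a cAMP-specific enzyme of high affinity, differed by -0.73 (SE 0.0727) and by 0.01 without doxycycline. PDE1C, which is activated by calcium and calmodulin, had 1.69, 0.513, 0.789 and 1.61 CPM in induced shAKAP2 cells, against 13.9, 13.2, 11.6 and 14.5 CPM in induced shScramble cells. It differed by -3.54 (SE 0.336) with doxycycline and by -5.59 without it, so that it was lower in both states and its interaction, 2.05 (adjusted p = 0.0141), had the opposite sign to those of PDE4D and PDE8A.

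Matrix proteases and their inhibitors were lower in 17 of 34 tested genes and higher in 7, with a median of -0.52. PLAT, tissue plasminogen activator, had 52.9, 59.4, 54.2 and 70.1 CPM in induced shAKAP2 cells, against 338, 257, 264 and 253 CPM in induced shScramble cells. PLAT differed by -2.23 (SE 0.117) with doxycycline and by -0.65 without it. PLAUR, the urokinase receptor, went the opposite way, with 139, 148, 144 and 121 CPM in induced shAKAP2 cells, against 57.4, 66.2, 77.4 and 70.6 CPM in induced shScramble cells (log2 difference 1.02, SE 0.0888, and 0.05 without doxycycline). ADAMTS12, a secreted metalloprotease, differed by -1.15 (SE 0.0759). Others were chosen after their values were seen. The membrane protease MMP14 was higher by 0.48 (SE 0.0845), while the inhibitor TIMP3 (-2.22, SE 0.173) and the gelatinase MMP2 (-1.88, SE 0.391) were lower.

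Structural matrix genes were called lower more often than higher. Of 47 tested laminins and matrix glycoproteins 20 were lower and 7 higher (median -0.47, and -0.21 without both shScramble replicate 1 libraries), and of 24 collagens 9 were lower and 4 higher (median -0.34). COL1A2, a chain of type I collagen, had 5.35, 5.28, 5.56 and 5.67 CPM in induced shAKAP2 cells, against 41.2, 32.3, 24.1 and 30 CPM in induced shScramble cells (log2 difference -2.54, SE 0.263). The partner chain COL1A1, chosen after its values were seen, was higher by 0.94 (SE 0.255), as it was without doxycycline (1.20). COL4A2, a basement membrane chain, was higher by 0.77 (SE 0.0961) and COL18A1 lower (-1.34, SE 0.188). Among the glycoproteins MATN2 (matrilin), THBS2 (thrombospondin) and the proteoglycan SRGN differed by -2.06, -2.89 and -2.22. SRGN differed by -2.02 before induction, with no interaction call, whereas MATN2 and THBS2 had a lower interaction.

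Genes tied to the spread of this line to lung and bone were lower in 12 of 27 tested and higher in 5, with a median of -0.57; before induction 8 were lower and 7 higher. CXCR4, the chemokine receptor of bone and lung homing, had 1.03, 1.17, 0.789 and 0.879 CPM in induced shAKAP2 cells, against 13.8, 11.2, 10.6 and 11.2 CPM in induced shScramble cells. It differed by -3.59 (SE 0.186, adjusted p = 8.89e-12) with doxycycline and by -1.90 without it, and the interaction of -1.69 was called. S100A4, a calcium-binding protein of motile cells, had 266, 315, 311 and 330 CPM in induced shAKAP2 cells, against 1770, 1160, 884 and 924 CPM in induced shScramble cells (log2 difference -1.95, SE 0.184). Of the genes in the list known to restrain spread, the tetraspanin CD82 was lower (-0.74, SE 0.0724), NME1 and BRMS1 were called higher and KISS1 was not called.

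Markers of epithelial and mesenchymal state did not move as a block. Of 15 tested mesenchymal genes 6 were lower and 2 higher (median -0.07), and of 18 epithelial genes 6 were lower and 4 higher (median -0.21). CDH11, a mesenchymal cadherin, had 24.9, 28.9, 31.8 and 36.2 CPM in induced shAKAP2 cells, against 190, 120, 108 and 131 CPM in induced shScramble cells (log2 difference -2.17, SE 0.255). The transcription factor ZEB1, which represses epithelial genes, differed by -0.51 (SE 0.0626) and by 0.13 without doxycycline, and SNAI2, chosen after its values were seen, by -0.51. On the epithelial side ESRP2, a splicing regulator, was higher by 1.69 (SE 0.172), and by 1.62 without doxycycline, while CLDN7 and KRT7 were lower (-2.01 and -0.66). CDH1, E-cadherin, also chosen after its values were seen, was at or near the limit of detection, with 8 counts summed in induced shAKAP2 libraries and 108 in induced shScramble libraries, of which replicate 1 held 62. Its log2 difference was -3.57 (SE 0.969, adjusted p = 0.00613), or -2.57 without that library, and limma-voom did not call it (adjusted p = 0.0697).

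Actin and myosin genes were called in both directions, 13 of 44 higher and 11 lower, with a median of 0.10. CALD1, caldesmon, which binds actin and tropomyosin, had 330, 306, 294 and 314 CPM in induced shAKAP2 cells, against 208, 182, 183 and 185 CPM in induced shScramble cells (log2 difference 0.71, SE 0.0754). TPM1, a tropomyosin (-0.62, SE 0.0641), and MYL9, a regulatory light chain (-0.43, SE 0.0545), were lower. Both were lower before induction, with no interaction call. Targets of YAP and TAZ, the coactivators of the Hippo pathway, were also split, with 9 of 26 higher, 7 lower and a median of 0.05. The growth factor binding protein gene IGFBP3 was lower (-1.35, SE 0.112), and so was ANKRD1 (-0.61, SE 0.0741), at 374 CPM on average in induced shAKAP2 cells and 573 CPM in induced shScramble cells. ANKRD1 was lower still before induction (-1.01), and its interaction was 0.40.

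The growth factor lists held calls in both directions. In the TGF-beta and BMP list 12 of 38 tested genes were lower and 5 higher (median -0.14). Together 44.7% of that list were called, against 40.2% of all genes tested. TGFBR3, the betaglycan co-receptor, had 11.9, 9.79, 12.1 and 11.9 CPM in induced shAKAP2 cells, against 33.4, 41.8, 49.4 and 41.7 CPM in induced shScramble cells (log2 difference -1.86, SE 0.11, interaction -2.13), and the ligand BMP4 differed by -1.05 (SE 0.105). In the EGF family list 3 of 14 were lower and 3 higher, a lower share near that of all genes. TGFA, a ligand of the EGF receptor, had 98.5, 93, 96.6 and 87.8 CPM in induced shAKAP2 cells, against 197, 220, 220 and 213 CPM in induced shScramble cells. It differed by -1.18 (SE 0.0679, adjusted p = 4.07e-11), although it was higher in shAKAP2 cells by 0.25 before induction.

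Output genes of the MAPK pathway were evenly divided, 10 of 30 higher and 10 lower (median 0.03). FOSL2, an AP-1 subunit, differed by -1.19 (SE 0.0854) and the immediate early gene IER3 by -0.93 (SE 0.0892), and each holds 1 copy of the word. The early genes FOS and EGR1, chosen after their values were seen, were higher by 2.02 and 1.19. FOS had 15.6, 15.6, 7.86 and 10.4 CPM in induced shAKAP2 cells, against 3.78, 3.16, 3.09 and 2.24 CPM in induced shScramble cells, and it was higher by 1.42 without doxycycline, with no interaction call.

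Axon guidance genes, whose ligands and receptors also steer endothelial and tumour cells, were lower in 19 of 46 tested and higher in 7, with a median of -0.31. EFNB2, ephrin B2, had 45.5, 39.5, 42.7 and 44.3 CPM in induced shAKAP2 cells, against 109, 113, 130 and 127 CPM in induced shScramble cells. EFNB2 differed by -1.48 (SE 0.0689, adjusted p = 1.83e-12) with doxycycline and by 0.17 without it. NRP2, a co-receptor for semaphorins and vascular growth factors, differed by -2.11 (SE 0.128), against 0.35 without doxycycline. The secreted guidance cue NTN4 had 0.823, 0.697, 0.977 and 0.403 CPM in induced shAKAP2 cells, against 13.3, 9.58, 7.83 and 10.4 CPM in induced shScramble cells (log2 difference -3.82, SE 0.232, and -1.05 without doxycycline). The interaction was lower for 12 genes of the list and higher for 1.

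The higher side of the comparison held genes of growth and chromatin. Of 37 tested MYC targets and ribosome biogenesis genes 18 were higher and 1 lower, with a median of 0.32, and their summed level was 7440 to 7690 CPM in induced shAKAP2 libraries, against 4650 to 6070 CPM in induced shScramble libraries. Without doxycycline 7 of the list were higher and none lower (median 0.19), and the interaction was higher for 2 and lower for 1. FBL, fibrillarin, which methylates ribosomal RNA, had 331, 348, 327 and 335 CPM in induced shAKAP2 cells, against 179, 215, 214 and 215 CPM in induced shScramble cells (log2 difference 0.70, SE 0.0824). ODC1, the rate-limiting enzyme of polyamine synthesis, was higher by 1.64 (SE 0.235) and MYC itself by 0.41 (SE 0.0727), both chosen after their values were seen; MYC was higher by 0.39 before induction as well. The single lower gene, MYCBP, which encodes a MYC-binding protein and holds 1 copy of the word, had 7.66, 5.57, 9.36 and 8.64 CPM in induced shAKAP2 cells, against 32.5, 41.6, 34.5 and 38.8 CPM in induced shScramble cells (log2 difference -2.24, SE 0.133, and 0 without doxycycline).

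Cytosolic ribosomal protein genes were higher in 28 of 74 tested and lower in 4, by small amounts with a median of 0.15. Before induction 4 were higher and 11 lower, and the interaction was higher for 35 and lower for 1. Without both shScramble replicate 1 libraries 60 were higher and 3 lower. RPS2 differed by 0.59 (SE 0.0654) and RPL22 by 0.51 (SE 0.0506). RPS7 was lower, with 491, 524, 540 and 525 CPM in induced shAKAP2 cells, against 1040, 810, 812 and 700 CPM in induced shScramble cells (log2 difference -0.69, SE 0.095). Ribosomal protein genes have many processed copies in the genome, so small differences in their counts are uncertain.

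Genes of DNA replication and mitosis were higher in 22 of 52 tested and lower in 1, with a median of 0.23 and no member called at 2-fold. The count was 26 higher and 5 lower without both shScramble replicate 1 libraries. The replication licensing genes MCM2 and MCM6 were higher by 0.56 (SE 0.102) and 0.43 (SE 0.0692), and the mitotic kinase AURKB by 0.56 (SE 0.118). AURKB had 93.8, 108, 112 and 98.4 CPM in induced shAKAP2 cells, against 66.7, 69.6, 72.7 and 71.1 CPM in induced shScramble cells. Before induction 3 of the list were higher and 1 lower.

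Replication-dependent histone genes, whose transcripts mostly lack a poly(A) tail and are recovered only in part from polyadenylated RNA, were higher in 8 of 15 tested and lower in none (median 0.63). Their summed level was 307 to 325 CPM in induced shAKAP2 libraries, against 134 to 146 CPM in induced shScramble libraries. HIST1H1C, a linker histone, had 127, 138, 135 and 129 CPM in induced shAKAP2 cells, against 43.7, 50.3, 49.1 and 46.5 CPM in induced shScramble cells (log2 difference 1.48, SE 0.0916). HIST1H2BK was higher by 1.28 (SE 0.062), and both were higher by less without doxycycline (0.39 and 0.43), with a higher interaction.

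Mitochondrially encoded transcripts were lower in 11 of 13 and higher in none, with a median of -0.79. Without doxycycline 1 was lower and none higher (median -0.42), and the interaction was lower for 2, MT-ND5 and MT-ND6, and higher for none. MT-ND5, a subunit of respiratory complex I, had 580, 376, 537 and 709 CPM in induced shAKAP2 cells, against 1530, 1510, 1090 and 1410 CPM in induced shScramble cells. It differed by -1.33 (SE 0.17) and MT-ND6 by -1.36 (SE 0.176). The summed level of the list was 10100 to 20200 CPM in induced shAKAP2 libraries, against 21700 to 30100 CPM in induced shScramble libraries.

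Metabolic genes split by pathway. Of 33 tested cholesterol and fatty acid synthesis genes 9 were higher and 3 lower (median 0.25), and 18 were higher without both shScramble replicate 1 libraries. The fatty acid elongase ELOVL6 had 93.1, 92.3, 112 and 104 CPM in induced shAKAP2 cells, against 226, 220, 209 and 201 CPM in induced shScramble cells. ELOVL6 was lower (-1.09, SE 0.0683), and differed by 0.12, which was not called, without doxycycline. SREBF1, a master regulator of lipid synthesis chosen after its values were seen, was lower too (-1.52, SE 0.376). Glycolysis and hypoxia genes were lower in 17 of 38 and higher in 6 (median -0.39), with the angiogenic factor VEGFA lower (-0.78, SE 0.0578), and with the vasodilator peptide gene ADM and the glycolytic enzyme GPI higher by 1.11 (SE 0.0792) and 0.57 (SE 0.0631).

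Stress and death pathways had calls in both directions. Of 36 genes of the integrated stress and unfolded protein responses 7 were higher and 6 lower (median -0.05). Together 36.1% of them were called, which is no more than the 40.2% of all genes tested. SLC7A11, the cystine transporter, had 301, 250, 258 and 223 CPM in induced shAKAP2 cells, against 44.9, 71.7, 84.5 and 79.1 CPM in induced shScramble cells (log2 difference 1.88, SE 0.176, and 0.87 without doxycycline). EDEM1 and SEL1L, both of the pathway that degrades misfolded proteins of the endoplasmic reticulum, differed by -1.22 (SE 0.0887) and -1.02 (SE 0.102). Among p53 targets and death regulators 12 of 44 were higher and 10 lower (median 0.06), a lower share near the 21.5% of all genes. The caspase inhibitor XIAP was lower (-1.14, SE 0.0825), the initiator caspase CASP8 higher by 0.91 (SE 0.1) and MDM2, which degrades p53, higher by 0.66 (SE 0.0667).

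Among nuclear chromosomes the X chromosome had the lowest median in both states. Of its 515 tested genes 44.9% were lower and 7.18% higher in induced shAKAP2 cells, with a median log2 difference of -0.33, and the median was -0.36 without doxycycline. The gene XIAP lies there. Chromosomes 13 and 14 had medians of -0.15 each with doxycycline and of -0.15 and -0.10 without it. Chromosome 9, which carries AKAP2, had 29.1% of 608 genes higher and 20.1% lower, with medians of 0.09 with doxycycline and 0.10 without it. Of the 30 tested genes of the mitochondrial chromosome 63.3% were lower, with medians of -0.78 with doxycycline and -0.39 without it. These shares and medians are descriptions, given with no test.

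**Figure D5:**
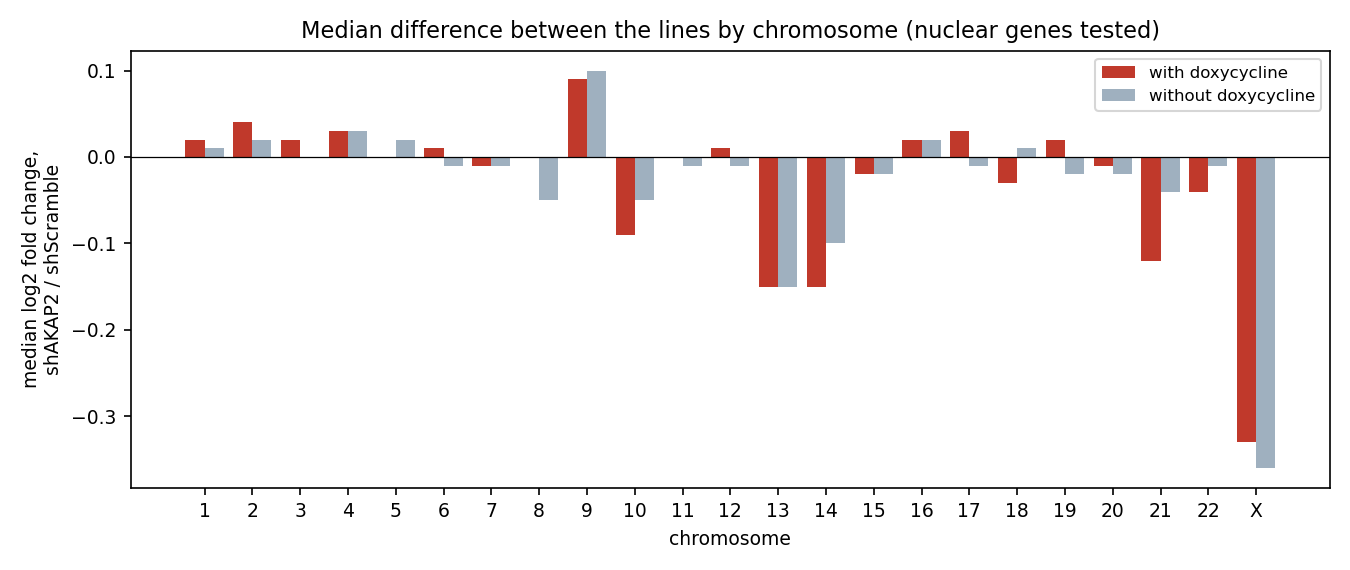
Median log2 difference between shAKAP2 and shScramble cells (y axis, bars from 0) by chromosome (x axis), with doxycycline (red) and without it (grey). Of the nuclear chromosomes, which alone are drawn, the X chromosome has the lowest medians in both states, -0.33 and -0.36, chromosomes 13 and 14 are at -0.15 with doxycycline, and chromosome 9 is at 0.09 and 0.10.

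Markers of other cell types were low, and some of them differed. The summed level of 13 tested blood and myeloid markers was 54.6 to 73.3 CPM in induced shAKAP2 libraries, against 144 to 197 CPM in induced shScramble libraries, and most of it was LAPTM5, a lysosomal membrane protein (47.7, 53.3, 50.1 and 41.4 CPM in induced shAKAP2 cells, against 111, 163, 156 and 148 CPM in induced shScramble cells). MPO and HBB had 0 counts in all 8 libraries, but other markers were detected. The leukocyte gene PTPRC had 98 counts summed over induced shAKAP2 libraries and 178 over induced shScramble libraries. CD14 had 122 counts over induced shAKAP2 and 713 over induced shScramble libraries, and CSF1R had 428 over induced shAKAP2 and 924 over induced shScramble libraries. Of the 13 markers 4 were lower with doxycycline and none higher (median -0.69), whereas 8 were higher and 1 lower without it (median 2.37). The interaction was lower for 9 of these 13 and higher for none. Their summed level without doxycycline was 79.5 to 93.7 CPM in shAKAP2 libraries, against 91.1 to 109 CPM in shScramble libraries. The 8 fibroblast markers summed to 21.2 to 24.5 CPM in induced shAKAP2 libraries, against 47.7 to 72 CPM in induced shScramble libraries, with 4 lower and 1 higher, PDGFRB among the lower (-1.71, SE 0.162). Without doxycycline 2 of these 8 were higher and 1 lower (median 0.7), and the interaction was lower for 4 and higher for none. Their summed level without doxycycline was 23.2 to 34.9 CPM in shAKAP2 libraries, against 26.9 to 48.2 CPM in shScramble libraries. The 3 endothelial markers were all lower, at 15.8 to 18.6 CPM in induced shAKAP2 libraries, against 34.2 to 48 CPM in induced shScramble libraries, ESAM by -1.2 (SE 0.137), while VWF and CDH5 had at most 2 counts in any of the 8 libraries. The 7 luminal markers summed to 356 to 385 CPM in induced shAKAP2 libraries, against 326 to 486 CPM in induced shScramble libraries. Of these 7 markers 3 were lower and 1 higher, with a median of -0.27. In bulk RNA, fewer cells of a type and less RNA per cell cannot be told apart, and the part of other cells in the matrix and immune differences was not tested.

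Of the 129 genes named here, 34 overlap another tested gene in the annotation, among them VCL with AP3M1, SEL1L3 with SMIM20, MYCBP, MDM2, CIITA, IRF1 and S100A4. The use of strand in counting is not given in the sources used here, so reads of such pairs cannot be told apart.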

How the data were processed

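RNA was sequenced from MDA-MB-231 cells with an inducible shAKAP2 or shScramble hairpin, with and without doxycycline, in 16 libraries, 4 per group. Per the labels' protocols, RNA was selected with oligo(dT) and libraries were made with the NEBNext Ultra II kit. The authors deposited whole-number read counts per gene, not normalized, and the submitters' processing notes name STAR 2.5.2b, featureCounts, Subread 1.5.2 and GRCh38. Neither source names the annotation release or the strand setting.

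Counts were fitted over all 16 libraries, by group, with edgeR 4.0.16 (quasi-likelihood, robust, TMM scaling, filterByExpr; R 4.3.3), which left 15566 of 57500 genes and 12 residual degrees of freedom. The common dispersion corresponded to a coefficient of variation of 14.4% between libraries. SE is the absolute log2 difference over the square root of F. Genes were called at an adjusted p under 0.05, adjusted over the genes tested. UTRs came from GENCODE release 29, which held 56898 of the identifiers. No 2 libraries held identical values. The script was tested on simulated counts.

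Named genes were the AKAP2 locus, the 12 largest and 12 smallest log2 differences among genes called, of at least 1 mean CPM, with groups that do not overlap and no clone-style symbol, and up to 3 called members of each list with the smallest p. Some genes that these rules select are not reported here. Others are marked as chosen after their values were seen. The comparison, the gene lists and the word were chosen with earlier results of these data known. Alternatives were DESeq2 1.42.0 with its size factors, limma-voom 3.58.1, relative log scaling, no filter, the 8 libraries alone, a replicate block and leaving out libraries. Counting intervals are exact and cover counting error only.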

Additional observations from a re-analysis of the deposited data

Results flagged for a closer look

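In each group of 4 libraries, a library was marked when its gap to the nearest other library took up more of the group's range than Dixon's critical value for 4 libraries. This was applied to 258 groups, the induced groups of 129 genes, and marked 28, where chance marks about 1 in 20. Replicate 1 of induced shScramble cells was the library marked in 19 of the 28. It was the highest of its group for HLA-DRA at 185, HSD3B1 at 12, HLA-DPB1 at 27.8, HLA-DRB1 at 54.9, LGALS12 at 27.7, AGR2 at 13.2 and GPRC5B at 6.51 CPM. It was also the highest for CST1 at 303, RNASE1 at 6.9, CALD1 at 208, MATN2 at 130, PLAT at 338, PDGFRB at 18.6 and TNFSF10 at 301 CPM. It was the lowest of its group for CCDC183-AS1 at 0.195, PRKACB at 59.4, MCM2 at 75.7, FBL at 179 and AKAP12 at 8.54 CPM. The other marked libraries were IL24 in induced shAKAP2 replicate 1 (high, 5.93 CPM), ESAM in induced shAKAP2 replicate 1 (low, 10.1 CPM), HLA-B in induced shAKAP2 replicate 1 (low, 328 CPM), TGFBR3 in induced shAKAP2 replicate 2 (low, 9.79 CPM) and ITGB2 in induced shAKAP2 replicate 3 (low, 3.35 CPM). They also included HLA-DRB5 in induced shAKAP2 replicate 4 (high, 0.476 CPM), BST2 in induced shAKAP2 replicate 4 (high, 21.7 CPM), ESRP2 in induced shScramble replicate 2 (low, 1.63 CPM) and MMP14 in induced shScramble replicate 2 (low, 364 CPM).

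For 84 of the 129 genes the log2 difference between shAKAP2 and shScramble cells with doxycycline differed from that without it by the interaction test in edgeR (adjusted p under 0.05 over all genes), and the values below are the first minus the second. The difference was below 0 for AKAP2 (-5.65), PALM2-AKAP2 (-3.13), HLA-DRA (-3.97), MMP1 (-3.73), TSPAN8 (-2.55), PRKACB (-0.74), AKAP9 (-1.23), PRKAR1A (-0.66) and PDE4D (-1.17). Values below 0 were also found for PDE8A (-0.74), PTK2 (-1.43), VCL (-1.54), ARHGEF6 (-1.85), ITGB4 (-0.96), ITGB2 (-1.86), ITGA5 (-0.76), COL1A2 (-1.93) and COL18A1 (-1.0). To these were added MATN2 (-1.35), THBS2 (-1.39), PLAT (-1.58), ADAMTS12 (-1.03), CXCR4 (-1.69), CD82 (-0.81), S100A4 (-1.09), ZEB1 (-0.64) and CDH11 (-1.48). Lower with doxycycline than without it were also IGFBP3 (-1.39), TGFBR3 (-2.13), BMP4 (-0.69), FOSL2 (-1.42), IER3 (-0.63), TGFA (-1.43), EFNB2 (-1.65), NRP2 (-2.46) and NTN4 (-2.77). The same sign was found for DDX60 (-1.49), IRF1 (-1.01), IFIT3 (-0.84), PSMB10 (-1.11), ERAP2 (-0.84), CIITA (-2.11), HLA-DMB (-2.33), IL6ST (-1.59) and IL24 (-0.99). Further genes below 0 were ELOVL6 (-1.22), VEGFA (-0.24), EDEM1 (-1.2), SEL1L (-0.89), XIAP (-0.57), MYCBP (-2.24), RPS7 (-0.46), MT-ND5 (-0.80) and MT-ND6 (-0.87). The last genes below 0 were CAV1 (-0.73), LAPTM5 (-1.30), PDGFRB (-1.01), TIMP3 (-1.29), BST2 (-1.63) and MMP2 (-2.27). The difference was above 0 for SEL1L3 (1.39), PANX2 (3.01), AOC2 (2.49), PRKCQ-AS1 (2.36), SLC16A14 (2.23), MYO1D (2.12), PDE1C (2.05), CALD1 (0.63) and COL4A2 (0.95). Values above 0 were also found for PLAUR (0.98), ANKRD1 (0.40), ADM (1.27), SLC7A11 (1.01), MCM6 (0.32), AURKB (0.67), MDM2 (0.59) and CASP8 (0.69). The last genes above 0 were FBL (0.49), RPL22 (0.35), RPS2 (0.37), HIST1H2BK (0.85), HIST1H1C (1.09), MMP14 (0.48) and ODC1 (1.12).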

How the results depend on the processing

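With doxycycline, genes called higher numbered 2546 to 3328 and genes called lower 3007 to 3541 over the alternatives, and none of the calls reversed. Without doxycycline the counts were 744 to 1206 higher and 930 to 1398 lower when 1 library was left out. Leaving out shAKAP2 replicate 1 gave 744 and 930, and replicate 2 gave 805 and 959. Without both shScramble replicate 1 libraries 2132 genes were higher without doxycycline, and the interaction was higher for 2261 and lower for 2565. That alternative also gave 1 higher integrin, 18 higher cholesterol and fatty acid genes, 5 lower replication genes, 4 lower MYC targets, 60 higher ribosomal protein genes and 2 higher luminal markers. Leaving out 1 library moved the interaction counts to 861 to 1664 higher and 1391 to 2026 lower. The causes were not tested. Restricting the word search to protein-coding transcripts, chosen after seeing the data, gave 23.9% of lower and 6.58% of higher genes with the word.

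Of the 129 named genes 121 kept direction and call in each alternative. TLN1, which was not called, ran from -0.18 to 0.05 when 1 library was left out, being 0.02 without induced shAKAP2 replicate 3 and 0.05 without induced shScramble replicate 4. Limma-voom did not call HLA-DPB1 (-5.42), LGALS12 (-5.14), AGR2 (-4.51) and CDH1 (-2.72). AKAP12 lost its call with no filter (0.62) and without induced shAKAP2 replicate 1 (0.56). PALM2 (-1.11) and PXN (-0.25) gained one without induced shScramble replicate 1, and PALM2 also without induced shAKAP2 replicate 4 (-1.36).

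Same-numbered libraries of the induced groups did not deviate together (r of -0.1 to 0.02). These values show no pairing by number, but they cannot tell whether same-numbered libraries were handled together. Same-numbered shScramble libraries with and without doxycycline had r of 0.4 for replicate 1 and 0.2 for replicate 3. For replicates 2 and 4 r was 0.02 and 0.07. The interaction test took these libraries as independent, so the induced and uninduced line differences may share part of their spread. With the replicate block 2977 genes were higher and 3352 lower with doxycycline. Low counts limit AKAP2, PALM2-AKAP2, HSD3B1, TSPAN8, AGR2 and CDH1, each of which had libraries with few or no counts.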
